A study of Mus musculus with 4 samples.

Results

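The Reg family of secreted lectins was followed through 4 arrays of mouse pancreatic islets. Members were taken by the gene name that the scanner files give each probe: Reg1, Reg2, Reg3a, Reg3b, Reg3d, Reg3g and Reg4. They were 7 of 22328 genes on the array, each with 1 probe of 55681 and 1 spot per array. The scanner software called every member well above background on 4 of 4 arrays, and none was saturated or flagged, so all 7 entered each comparison.

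The islets came from 24-week-old C57BL/6 mice, with 1 array for each of 4 groups. One group was of wild-type males, here male WT, and another of transgenic males, male Tg, which the labels give as diabetic. Others were of transgenic males implanted with E2, that is estradiol, whose islets were taken 6 weeks later (male Tg E2), and of transgenic females, female Tg. Neither the transgene nor its promoter is named in the labels used here, and the number of mice behind an array is not given. Islets were freed by collagenase perfusion of the pancreas, separated on a gradient and picked by hand, so each array measures a bulk mixture of the cells that came with them. Endocrine markers were present: 12 of 12 beta cell, 7 of 7 alpha cell and 5 of 5 delta and PP cell genes were well above background on every array.

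Reg proteins are small secreted proteins with a C-type lectin fold, which in some members binds sugars of bacterial walls. Reg1 was first found in regenerating islets, and acinar cells of the exocrine pancreas secrete it, together with Reg2, into pancreatic juice. The Reg3 proteins are best known from the gut, where interleukin 22 and interleukin 6 induce several of them through STAT3, and from the inflamed pancreas, where Reg3b was found as pancreatitis-associated protein. Reg4 is known from gut epithelium and its enteroendocrine cells.

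The probes of this family were compared with each other first. The first 30 bases of each 60-base probe are given, 5′ to 3′, all in lower case because no stretch over 7 bases is shared.
Reg1 probe: ggaccatctatcaaaagcaaattagatcct
Reg2 probe: acagtactcctttgtctgcaagttcagagc
Reg3a probe: cccatgacaagggatgaaatacaagaattc
Reg3b probe: gtgaagactcacctagaaaaagcattttct
Reg3d probe: gtgtattctctggggactctggcctaagga
Reg3g probe: gagtacagaattgacatcatgggttgatat
Reg4 probe: gcattgcgctgagatgaaccccaaggataa
Over the full 60 bases, the longest stretch that any of the 21 pairs shared was 7 bases, and at most 26 of 60 bases matched without gaps. No other probe on the array shared a run of 25 bases with a Reg probe. Probes were not compared with the other members' transcripts, so whether a probe also reads another member was not tested.

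By the files' positions on build mm9, 6 of the probes lie close together on chromosome 6. In the order of that chromosome they are at chr6:78323323-78323382 for Reg3b, chr6:78325868-78325927 for Reg3d, chr6:78333635-78333694 for Reg3a, chr6:78357959-78358018 for Reg2, chr6:78378527-78378586 for Reg1 and chr6:78416420-78416479 for Reg3g. Reg3d and Reg3g lie on the minus strand and the other 4 on the plus strand. The Reg4 probe is on chromosome 3, where its 60 bases span 3247 bases (chr3:98037005-98040251), so it crosses at least 1 intron. For the others exon and untranslated region were not assigned.

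A level here is log2 of the processed Cy3 intensity minus the log2 75th percentile of all non-control probes on that array, so a level of 0 is the 75th percentile. That percentile was an intensity of 410 on male WT, 230 on male Tg, 338 on male Tg E2 and 294 on female Tg, and between 49.9% and 54.8% of spots were well above background. With 1 array per group there is no replicate: each difference is one between single arrays, no test between conditions is possible, and the number of arrays limits precision. The errors given are the scanner software's standard errors, which for the Reg differences lay between 0.20 and 0.24 log2. They do not include variation between mice. For bright probes they come close to a fixed share of the intensity, as for Reg1 with 22339 of 223388 on male Tg and 2307 of 23075 on male WT. Among repeated spots of a probe on an array the standard deviation was smaller, with medians of 0.0662 to 0.0756 log2.

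Reg1 and Reg2 are Reg genes that acinar cells normally express. Reg1 read 5.98 on the male WT array, 10.11 on male Tg, 9.62 on male Tg E2 and 5.92 on female Tg. Reg2 read 4.22, 9.54, 8.74 and 2.42 in the same order. Both were high on male Tg and on male Tg E2 and low on the others, and Reg2 alone of this pair was clearly lower for female Tg than for male WT.

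The Reg3 genes encode the members with known antibacterial roles and their close relatives. In the order used for Reg1, Reg3a read 0.10, 5.38, 2.85 and −0.86. Reg3b, the pancreatitis-associated protein gene, read 1.70, 6.79, 5.94 and 0.97. Its male Tg E2 level lay near the male Tg level, whereas that of Reg3a lay about midway between male WT and male Tg on the log2 scale. Reg3d, which is related to the islet neogenesis-associated protein of hamsters, read 1.14, 7.77, 6.30 and 1.01. Reg3g, which encodes a lectin that kills Gram-positive bacteria in the gut, read −1.89, 5.36, 3.40 and −0.86. Of the 4 Reg3 genes, Reg3g was the one whose lowest level was on the male WT array.

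Reg4 varied the least. Its levels were −2.13, 0.39, −1.33 and −1.56 in the same order, a range of 2.52 log2 against ranges of 4.19 to 7.25 for the other 6. In processed intensity Reg4 gave 83.6 ± 9.51 on the male WT array and 265 ± 26.8 on male Tg, and Reg3g gave 98.4 ± 11.1 and 8314 ± 831, where the error is the scanner software's.

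The order of the arrays was the same at the top for all 7 genes: male Tg highest, then male Tg E2. Below these, male WT stood above female Tg for Reg1, Reg2, Reg3a, Reg3b and Reg3d, and female Tg above male WT for Reg3g and Reg4. Some neighbours in that order differed by little. Male WT and female Tg differed by less than 1 standard error for Reg1 (−0.06 ± 0.20) and Reg3d (−0.13 ± 0.20). The male Tg E2 and female Tg arrays differed by about 1 standard error for Reg4 (−0.24 ± 0.23). With 1 array per group, whether the other neighbours are separated could not be tested.

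**Figure D1:**
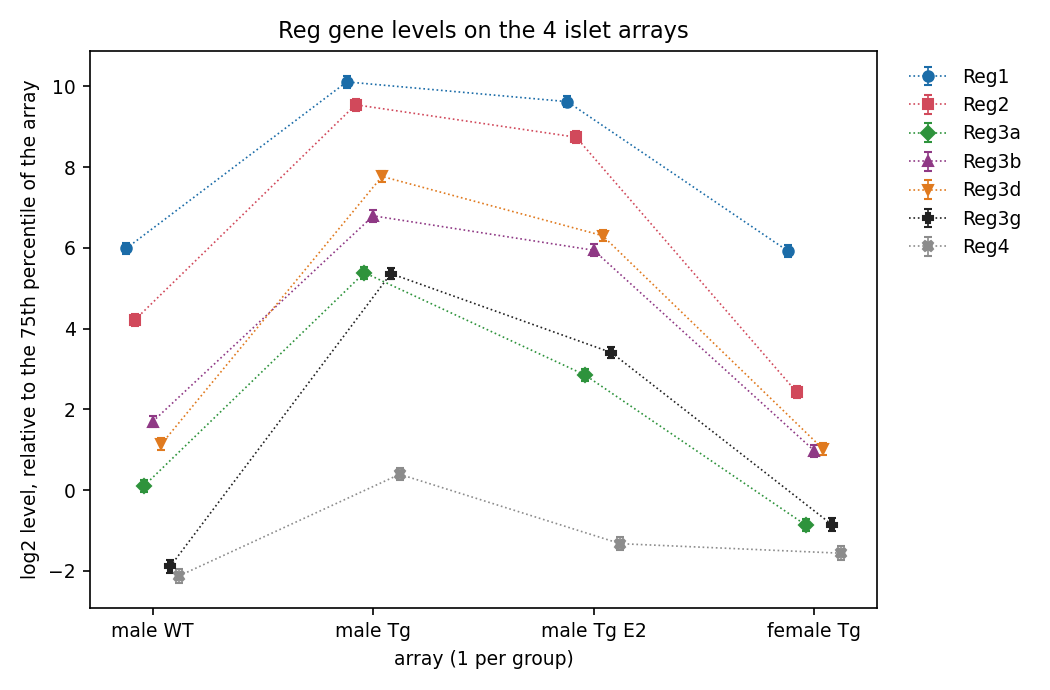
Level of each Reg gene on the 4 arrays, as log2 processed intensity relative to the array's 75th percentile, with bars for the scanner software's standard error. Points of 1 gene may be compared across arrays but not with those of another gene, because probes differ in brightness, and dotted lines only join the points of a gene. All 7 genes are highest on the male Tg array and next highest on male Tg E2.

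Male Tg was compared with male WT to ask how the islets of diabetic transgenic males differ from those of wild-type males. All 7 Reg genes were at least 2-fold higher on the male Tg array, and all 7 at least 4-fold, beside shares of 15.6% and 6.97% of 14386 measured genes. A gene was measured in a comparison when it was well above background on both arrays. Reg3g was highest at 7.25 ± 0.22 log2, a 152-fold difference, and only 2 of the measured genes had a larger one. Reg3d followed at 6.63 ± 0.20 (98.9-fold), with 5 genes larger. Both are Reg3 genes that sit on the minus strand at separate places in the cluster.

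Reg2 (5.33 ± 0.20), Reg3a (5.28 ± 0.21) and Reg3b (5.10 ± 0.20) differed from each other by little more than 1 standard error, at 40.1-fold, 39.0-fold and 34.2-fold. Reg1 was 4.13 ± 0.20 higher, or 17.5-fold, and Reg4 2.52 ± 0.22, or 5.72-fold. The family median was 5.28 log2 where the median of all measured genes was −0.21, so relative to the array as a whole the family stood 5.49 above. Across 9 ways of scaling, filtering and probe choice the difference of Reg3g ran from 6.16 to 7.25 and that of Reg4 from 1.71 to 2.52, and no member changed sign. In 3 of those settings, the background filters and the averaging of probes, a Reg value cannot differ from the main one, because each gene has 1 probe that passed every filter.

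Transgenic males with and without the implant were then compared. Of the 7 genes, 4 were lower with the implant by 2-fold or more and none was higher, beside 8.01% of 14618 measured genes lower and 2.54% higher. Reg3a differed by −2.53 ± 0.20 log2, which is 5.79-fold lower, and Reg3g by −1.96 ± 0.20, which is 3.88-fold lower. Reg4 was 3.29-fold lower and Reg3d 2.76-fold. The remaining 3 genes, Reg1, Reg2 and Reg3b, differed by less than 2-fold, at −0.49, −0.80 and −0.85 log2.

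The family median was −1.47 log2, against 0.12 for all measured genes. For Reg1 the direction was not settled, since its difference was 0.00 after quantile normalization and 0.03 after background modelling with quantile normalization. The other 6 were lower under all 9 settings. Levels on the male Tg E2 array nonetheless stayed above male WT for 6 of 7 genes by at least 2-fold, beside 8.82% of 14587 measured genes. Reg3g was 39.2-fold and Reg3d 35.8-fold above male WT, Reg2 23.0-fold, Reg3b 18.9-fold, Reg1 12.4-fold and Reg3a 6.74-fold. Reg4 was the exception at 1.74-fold (0.80 ± 0.23 log2). These comparisons share the male Tg E2, male Tg or male WT array, so they are not independent of each other.

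The female Tg array shows the family in transgenic females of the same age. No group was of wild-type females. Against male WT, sex and transgene therefore differ together, and the effect of either alone was not tested. All 7 genes were at least 2-fold lower there than on the male Tg array, beside 8.57% of 14209 measured genes. Reg2 was lowest at −7.12 ± 0.20 log2, a 139-fold difference, and no measured gene had a lower value. Reg3d (108-fold), Reg3a (75.9-fold), Reg3g (74.5-fold) and Reg3b (56.5-fold) followed, with Reg1 at 18.2-fold and Reg4 at 3.88-fold. Against male Tg E2, 6 of the 7 were at least 2-fold lower on the female Tg array, beside 4.34% of 14292 genes. Reg2 was again lower than every other measured gene (−6.32 ± 0.20), and Reg4 was the one that differed little.

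Set against male WT, the female Tg array lay within 2-fold for 5 of the 7 genes, of which only Reg1 and Reg3d were within 1 standard error. One gene, Reg3g, was at least 2-fold higher (1.03 ± 0.23 log2, 2.04-fold), beside 7.65% of 14217 measured genes, and one, Reg2, at least 2-fold lower (−1.79 ± 0.20, 3.47-fold), beside 3.47% of them. Reg2 stayed more than 2-fold lower under all 9 settings, from −1.98 to −1.62. Reg3g ran from 0.59 to 1.03 and fell short of 2-fold under every setting that could change its value. Reg3a passed 2-fold on the lower side with median scaling alone (−1.15). Reg3a (−0.96) and Reg3b (−0.72) lay on the lower side and Reg4 (0.56) on the higher side under all 9 settings. Reg1 was at −0.06 and changed sign with the scaling.

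**Figure D2:**
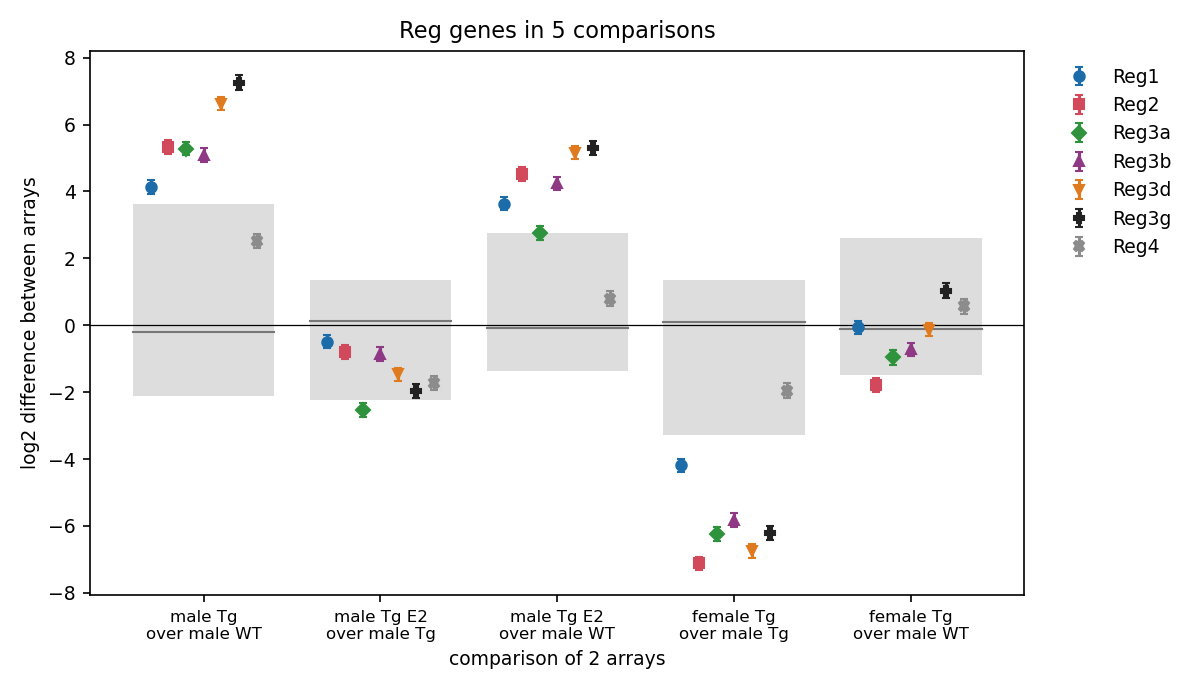
Log2 difference of each Reg gene in 5 comparisons of arrays, with bars for the scanner software's standard error. Grey bands run from the 1st to the 99th percentile of all measured genes, with a line at their median. All 7 genes lie above 0 in male Tg over male WT and below 0 in female Tg over male Tg, while in female Tg over male WT they lie on both sides, from −1.79 for Reg2 to 1.03 for Reg3g.

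Reg1 and Reg2 are acinar products, and acinar genes differed between the arrays alongside the Reg genes. Digestive enzymes and other acinar secretory products were measured through a list of 30 genes, of which 27 are on the array, all well above background on each array. Their summed level, in units of the array's 75th percentile, was 2521 on male WT, 23693 on male Tg, 14642 on male Tg E2 and 2704 on female Tg. The corresponding sums of the 7 Reg genes were 88.8, 2262, 1372 and 71.3. In bulk islets, a larger share of acinar cells and more of an RNA per acinar cell cannot be told apart, and the part of acinar RNA in the Reg differences was not tested.

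In male Tg over male WT, 26 of the 27 acinar genes were at least 2-fold higher, with a median of 4.50 log2 and a range from 0.76 for the amylase gene Amy2a5 to 6.27 for Cuzd1. The protease gene Ctrc (6.18), the ribonuclease gene Rnase1 (5.98) and the phospholipase gene Pla2g1b (5.89) were near the top. Reg1, Reg2, Reg3a, Reg3b and Reg4 lay inside that range, and Reg3d and Reg3g lay above all 27 genes. Cuzd1 and Ctrc were dim on male WT, at levels of −0.79 and 0.67, while Amy2a5 was the brightest of the 27 there at 9.13. Reg3g and Reg3d were also dim there, at −1.89 and 1.14. Reg4 read −2.13 there and differed by 2.52. Levels of different genes cannot be compared directly because probes differ in brightness. The part of starting brightness in these differences was not tested. Acinar transcription factors were at least 2-fold higher in 4 of 5 cases, with Rbpjl at 6.11, Ptf1a at 4.99 and Gata4 at 3.56, and Bhlha15 was at 0.80.

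In male Tg E2 over male Tg the 27 acinar genes ran from −1.64 to −0.44 with a median of −0.72, and 6 of them were at least 2-fold lower. Reg1, Reg2, Reg3b and Reg3d lay inside this range. Reg3a at −2.53, Reg3g at −1.96 and Reg4 at −1.72 lay below all 27. The first pair did so under 9 of 9 settings and Reg4 under 7 of 9. The 5 acinar transcription factors, which are not among the 27, ran from −1.97 for Rbpjl to −0.51 for Ptf1a. Rbpjl thus lay close to Reg3g and below Reg4. In male Tg E2 over male WT the acinar median was 3.58, and Reg3d (5.16) and Reg3g (5.29) lay above the highest of the 27 genes at 5.06, under 9 and 7 of 9 settings. In female Tg over male WT the acinar genes were spread narrowly, from −0.18 to 0.66 with a median of 0.11, and none passed 2-fold. Reg2, Reg3a and Reg3b lay below all 27 under 9 of 9 settings and Reg3g above all of them under 8 of 9. In female Tg over male Tg, Reg2 and Reg3d lay below all 27 genes under 9 of 9 settings, and Reg3a and Reg3g under 7 of 9.

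**Figure D3:**
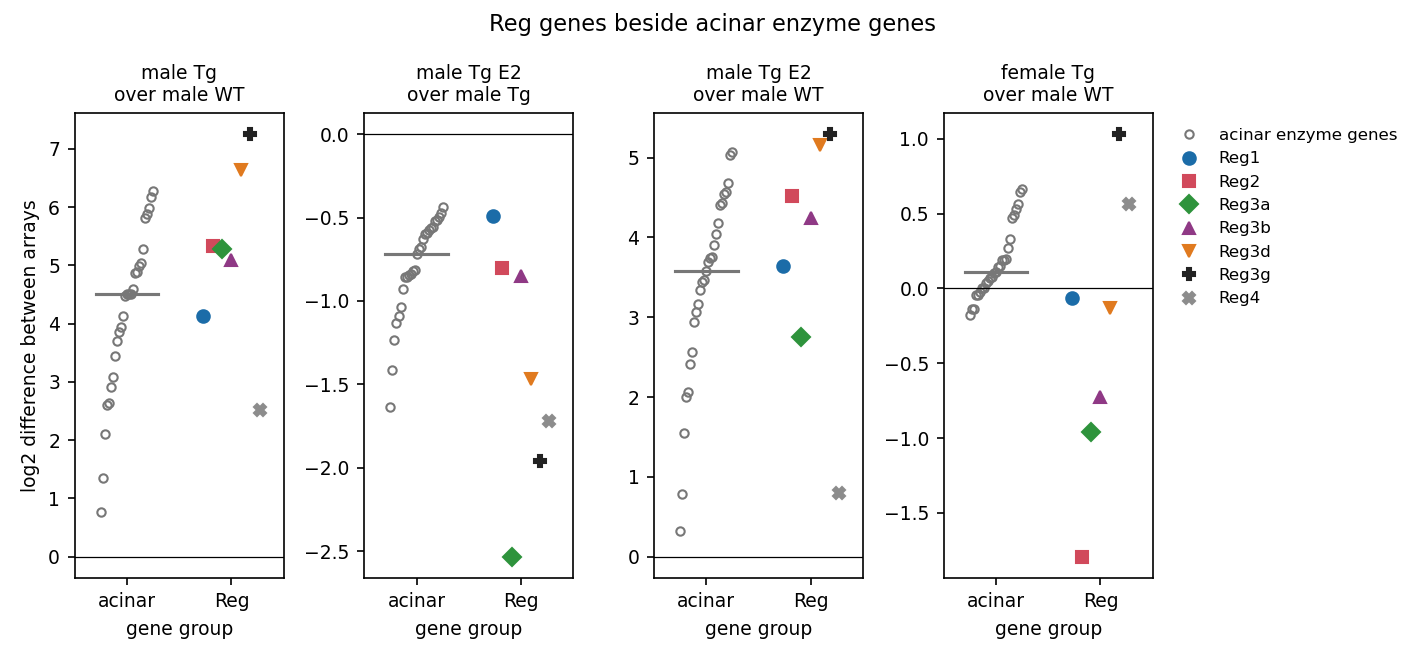
Log2 differences of the 7 Reg genes beside those of the 27 acinar genes in 4 comparisons of arrays, each panel with its own scale and a grey line at the acinar median. Reg3d and Reg3g stand above all 27 in male Tg over male WT, and Reg3a, Reg3g and Reg4 stand below them in male Tg E2 over male Tg. Reg2, Reg3a and Reg3b stand below them in female Tg over male WT.

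Markers of other cells also differed between the arrays, and their part in the Reg values was not tested. Of 11 measured ductal genes in male Tg over male WT, 5 were at least 2-fold higher and 1 lower, including the trefoil gene Tff2 (5.86), Car2 (3.89) and Krt19 (3.21) on the higher side and Krt7 (−1.04) on the lower. A further 3 ductal genes without a clear signal on male WT, Sox9, Muc1 and Mmp7, were higher by at least 2.39, 3.65 and 3.67 log2, a bound that takes the dimmer array at its detection limit. Lymphocyte markers were at least 2-fold higher in 10 of 12 cases on the male Tg array and likewise in 10 of 12 on the female Tg array, with medians of 3.29 and 3.16 log2 over male WT, where all measured genes had medians of −0.21 and −0.12. The Reg genes were high on the male Tg array alone of this pair, while the lymphocyte markers were high on both. With the implant, against male Tg, the lymphocyte median was −1.84, with 9 of 11 measured genes at least 2-fold lower. Red cell genes were at least 2-fold higher in 5 of 6 measured cases in male Tg over male WT (median 2.24) and lower in 5 of 6 in female Tg over male Tg (median −1.48) and in male Tg E2 over male Tg (median −3.32). Of the same 6 red cell genes, 4 were at least 2-fold lower in male Tg E2 over male WT (median −1.14), where 6 of 7 Reg genes were at least 2-fold higher. Macrophage markers had medians of 0.96 and 0.69 over male WT on the male Tg and female Tg arrays.

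The upstream signals known to induce Reg3 genes gave a mixed picture. Il6, which encodes interleukin 6, was well above background on the male Tg and female Tg arrays, and stood at least 3.32 log2 higher on male Tg than on male WT. On male Tg E2 it was not well above background, which puts its difference from male Tg at −2.80 log2 or further below 0, and on female Tg the difference from male Tg was −2.29. On the male Tg array Il22, Il17a, Il17f, Osm, Lif, Il10, Il19, Il20 and Il24 gave no signal well above background. Of these, Il22 was well above background on male WT, and Il24 on male WT and male Tg E2.

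Of 13 measured receptor genes for these cytokines, 5 were at least 2-fold higher and 3 lower in male Tg over male WT, where 15.6% of all measured genes were higher and 8.68% lower by that much. The higher ones included Il22ra1, the signalling chain of the interleukin 22 receptor (2.46), the soluble interleukin 22 binding protein gene Il22ra2 (8.02-fold), Il10ra (2.02) and the oncostatin M receptor gene Osmr (1.52). Il6st, the interleukin 6 signal transducer gene, was also among the higher ones, just past 2-fold. Il6ra, the interleukin 6 receptor gene, was lower (−1.31), with Lifr at −1.35 and Cntfr at −1.60. Il22ra1 was highest on male Tg and next highest on male Tg E2, with levels of −0.76 and −2.02, against −3.23 on male WT and no signal well above background on female Tg. Il22ra2 and Il10ra were instead highest on female Tg, where the Reg genes were low. Il22ra2 read 0.81 there, 0.02 on male Tg and −1.93 on male Tg E2, and Il10ra read 0.60, 0.13 and −0.73.

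Stat3, the transcription factor through which the interleukin 6 and interleukin 22 receptors act, was at −0.82 in male Tg over male WT and 0.02 in male Tg E2 over male Tg. Socs3, its feedback inhibitor, was at −0.36 and 0.05. Of 12 genes listed as STAT3 targets, 1 was at least 2-fold higher in male Tg over male WT, the kinase gene Pim1, which was just past the threshold, and 1 lower, Cebpd at −1.20. Among all measured genes, 15.6% were higher and 8.68% lower by that much. The median of the STAT3 target list was −0.00, and its sign depended on the scaling. Extl3, which encodes a proposed receptor for Reg proteins on target cells, was at 0.60 in male Tg over male WT, −1.07 in female Tg over male Tg and −0.14 in male Tg E2 over male Tg.

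Acute phase genes share some inducers with the Reg3 genes. In male Tg over male WT, 8 of 20 were measured and 5 of these were at least 2-fold higher, with Itih4 at 7.12, the haptoglobin gene Hp at 3.97, Lrg1 at 3.73 and the ceruloplasmin gene Cp at 3.39. Among all measured genes, 15.6% were higher by that much. Itih3, Lbp and Serpina3n had no clear signal on male WT and were higher on male Tg by at least 1.48, 2.74 and 1.85 log2. In male Tg E2 over male Tg, 3 of 10 measured were at least 2-fold lower, among them Itih4 (−2.28) and Hp (−2.25), and 2 were higher, Fgb at 2.50 and Lcn2 at 1.39. The shares of all measured genes there were 8.01% lower and 2.54% higher. Itih4 read −2.97 on male WT, 4.15 on male Tg, 1.87 on male Tg E2 and −1.92 on female Tg, which is the profile nearest to that of Reg3g among all 13890 genes measured on every array. In female Tg over male WT, 5 of 8 measured acute phase genes were at least 2-fold higher and none lower, beside 7.65% of all measured genes higher. The acute phase median there was 1.15 log2, where the Reg median was −0.13.

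Other secreted defence proteins of mucosal surfaces were at least 2-fold higher in 9 of 11 measured cases in male Tg over male WT. They included Dmbt1, a bacteria-binding scavenger protein (4.83), the lectin gene Zg16 (4.30) and the lysozyme genes Lyz1 (2.24) and Lyz2 (1.99). Zg16 and Dmbt1 are also acinar secretory products. Of the galectins, a separate family of lectins, 5 of 6 measured were at least 2-fold higher, with Lgals1 at 3.53, Lgals2 at 3.14 and Lgals9 at 2.79. Among all measured genes, 15.6% were higher by that much in male Tg over male WT. In male Tg E2 over male Tg, 5 of 11 defence genes and 4 of 6 galectins were at least 2-fold lower and none was higher, led by Itln1 (−2.59), Slpi (−2.20) and Lgals2 (−2.09). The share of all measured genes lower there was 8.01%.

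**Figure D4:**
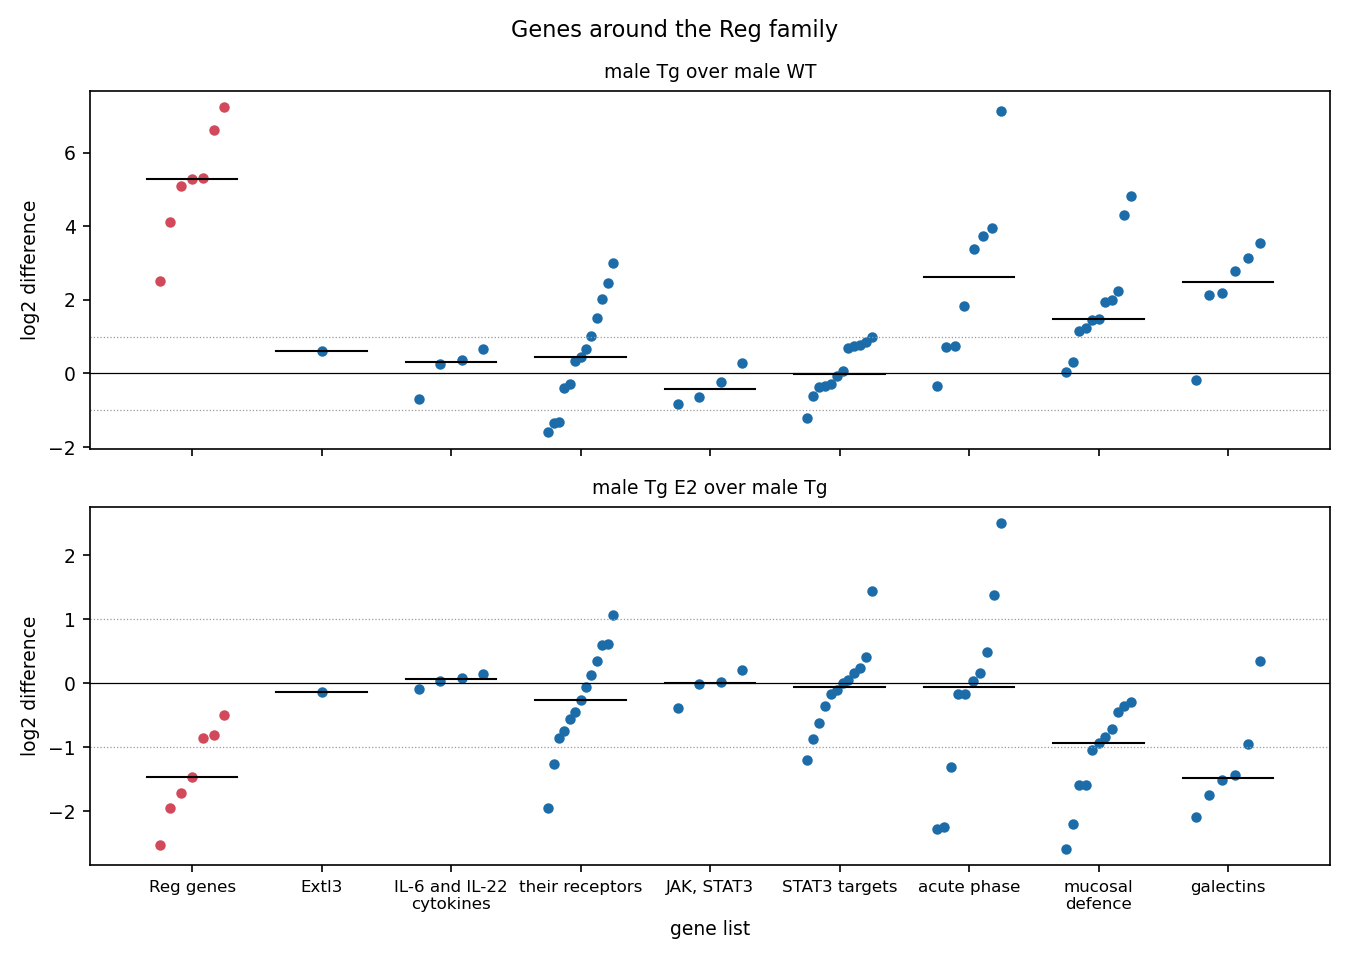
Log2 differences of the Reg genes beside those of cytokine, receptor, STAT3, acute phase, mucosal defence and galectin genes, 1 point per measured gene, with a black line at each list's median and dotted lines at 2-fold. Mucosal defence genes and galectins lie mostly above 0 in male Tg over male WT and mostly below 0 in male Tg E2 over male Tg, whereas the STAT3 targets are centred near 0 in male Tg over male WT, with a median of −0.00.

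The genes whose profile over the 4 arrays was most like the family's were found by distance. Each gene's levels were centred on its own mean, and the root mean square distance to the median centred Reg profile was taken over 4 arrays for 13890 genes. The 8 nearest were Olfr1347 (0.20 log2), Slc5a10 (0.21), Klk1b4 (0.28), Cabp2 (0.29), Serpini2 (0.29), Klk1b8 (0.30), Klk1b24 (0.31) and Klk1 (0.31). Of the members, Reg3b lay closest to the family's median profile (0.23) and Reg4 farthest (1.86), with 481 genes nearer than Reg4. Klk1 is on the acinar list, and its relatives Klk1b4, Klk1b8 and Klk1b24 are close in sequence to it, and whether their probes are separate readings was not tested. With 4 arrays, a likeness of this kind is a description only.

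The neighbours of the cluster on chromosome 6 were read where they gave a signal. In the RefSeq order, used for neighbours only, the cluster runs Reg3b, Reg3d, Reg3a, Reg2, Reg1 and Reg3g, with a pseudogene before Reg3g. Ctnna2, which encodes a catenin of neurons, differed by 0.01 log2 in male Tg over male WT and Gcfc2 by −0.40. Lrrtm1, a synaptic adhesion gene that lies in the same region as Ctnna2, differed by 1.89 in the same comparison, and by 1.60 in male Tg E2 over male WT. It also differed by 2.11 in female Tg over male WT, where the Reg median was −0.13. The highest level of Lrrtm1 was on the female Tg array. Lrrtm4, on the other side of the cluster, gave no signal well above background on 4 of 4 arrays, so no pattern is known for it. Near Reg4 on chromosome 3, Notch2 was 1.74 higher and the serine synthesis gene Phgdh 1.43 in male Tg over male WT. In female Tg over male WT, Notch2 was at 2.07 and Phgdh at −0.19.

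Members that moved together were also compared in their promoters, taken from RefSeq on GRCm38.p6 for the 250 bases before each start site. The last 140 bases before the start are printed for 5 cluster genes, 5′ to 3′ on the gene's own strand, because they hold the stretches that recur between members. Capitals mark the stretch TGCCAA, the TATA box and the STAT motif TTCNNNGAA.
Reg2 chr6:78405015-78405154 (+): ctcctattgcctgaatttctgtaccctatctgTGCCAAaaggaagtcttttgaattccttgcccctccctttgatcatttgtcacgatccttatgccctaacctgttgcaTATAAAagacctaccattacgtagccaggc
Reg3a chr6:78380569-78380708 (+): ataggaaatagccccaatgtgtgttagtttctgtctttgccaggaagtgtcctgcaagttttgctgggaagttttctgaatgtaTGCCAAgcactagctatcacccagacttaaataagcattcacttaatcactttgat
Reg3b chr6:78370745-78370884 (+): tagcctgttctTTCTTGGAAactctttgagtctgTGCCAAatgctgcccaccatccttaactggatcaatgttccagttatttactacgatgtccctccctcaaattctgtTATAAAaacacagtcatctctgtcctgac
Reg3d chr6:78378866-78379005 (-): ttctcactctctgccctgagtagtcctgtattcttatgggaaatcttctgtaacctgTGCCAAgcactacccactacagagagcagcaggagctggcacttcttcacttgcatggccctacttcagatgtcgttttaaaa
Reg3g chr6:78468875-78469014 (-): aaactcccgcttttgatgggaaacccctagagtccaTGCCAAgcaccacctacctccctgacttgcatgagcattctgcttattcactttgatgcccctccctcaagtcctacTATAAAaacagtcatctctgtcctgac
Reg3b and Reg3g, both next to a TATA box, end in a shared run of 20 bases.

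Motifs were counted on both strands over the 250 bases, beside their share of 32851 mouse promoters of that length. TATAAA, the TATA box, was present for 4 of 7 (Reg1, Reg2, Reg3b and Reg3g), against 12.4% of all. TTCNNNGAA was present for Reg3b, 129 bases before the start, and for Reg3d, 238 bases before it, against 7.02% of all. The 2 parts of the PTF1 site, which acinar enzyme genes carry, were searched separately. CACCTG was present for 5 of 7 (Reg2, Reg3a, Reg3b, Reg3d and Reg4) against 17.2%. TTTCCC was present for 4 of 7 (Reg1, Reg3b, Reg3d and Reg3g) against 21.9%. Only Reg3b and Reg3d had both parts, and the spacing between the parts was not examined, so a whole PTF1 site was not tested for. The C/EBP motif TTGCGCAA was in none of the 7 and in 0.164% of all.

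TGCCAA and its longer form TGCCAAGCAC were counted after the sequences had been read. TGCCAA was present for all 6 cluster genes and not for Reg4, against 12.3% of all promoters. TGCCAAGCAC was defined as the longest stretch common to the windows of Reg3a, Reg3d and Reg3g, so finding it in them was fixed in advance. It was in 0.0883% of all promoters. Of the chromosome 6 members, Reg3a, Reg3d and Reg3g were also the ones lower by 2-fold or more with the implant. That coincidence was noticed with both known and was not tested. A match describes letters in this window and says nothing of a factor bound there, and the members are related genes.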

How the data were processed

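Values came from the deposited scanner files of 4 one-colour Agilent arrays, on 1 slide, which hold Cy3-labelled total RNA of islets. The unit is intensity on a linear scale, background-corrected by the scanner software per the file headers. Feature Extraction 9.5.1.1 is named in the submitters' processing notes and version 10.7.1.1 in the file headers. Probe positions refer to mm9 per the file headers. The series' value table, deposited by the authors as intensity per probe, has the same quantiles on every array and served as an alternative.

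The log2 intensity minus each array's log2 75th percentile over non-control probes was computed with Python 3.11.15, pandas 2.3.3 and numpy 2.4.6. Normexp background modelling (offset 50) used limma 3.58.1 in R 4.3.3. The brightest probe on average stood for a gene, which was measured in a comparison if well above background on both. RefSeq tables of GRCm38.p6 served for gene names, neighbours and promoters. Flagged spots and control spots were left out. The whole table was processed, and the 2-fold threshold is a rule of size and not a test. Each of the 4 groups has 1 array, so there is no test. The steps were tested on simulated data.

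Named genes are the 7 Reg genes, Extl3, Stat3, Socs3, Il6, Il6ra, Osmr, Il22ra1, those that differed most in male Tg over male WT in each list (2-fold or more, no more than 4), and the 8 genes nearest in profile. Others named, including the list members that are not above background, the neighbours on the chromosome, the gene nearest to Reg3g and genes given for male Tg E2 over male Tg, were chosen after values were seen. Members, lists and motifs were chosen with earlier results of these data known. Lists cover Reg inducers and their receptors, STAT3 signalling, acute phase, mucosal defence, galectins, and markers of acinar, ductal, beta, alpha, delta and PP, stellate, endothelial, macrophage, lymphocyte and red cells. Alternatives were 10: normexp, quantile normalization, both together, median scaling, the value table, no background filter, a filter at the array median, the mean of a gene's probes, and thresholds of 1.5-fold and 4-fold.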

Additional observations from a re-analysis of the deposited data

How the results depend on the processing

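No paired analysis was possible because each group has 1 array and the labels give no replicate number, and for the same reason no array could be left out. The direction of the family median was the same under all 8 other values of each comparison, and no difference of 2-fold or more changed sign. Among these, the background filters and the averaging of probes could not change a Reg value. Below 2-fold, Reg1 changed sign or came to 0 under some scalings in male Tg E2 over male Tg (up to 0.03) and female Tg over male WT (up to 0.13). The median of male Tg over male WT was 5.28 and became 4.87 with normexp, 4.98 with quantile normalization, 4.87 with both, 4.95 with median scaling and 4.96 with the value table. The median of male Tg E2 over male Tg (−1.47) became −1.21 with quantile normalization, −1.19 with normexp and quantile normalization and −1.21 with the value table. That of female Tg over male Tg (−6.22) became −5.53 with normexp and −5.57 with both, and that of female Tg over male Tg E2 (−4.26) became −3.70 and −3.68. The count of Reg genes at least 2-fold different in female Tg over male WT was 2 and became 1 with normexp, quantile normalization, both together or the value table, since Reg3g then fell short. With median scaling it stayed 2, with Reg3a in place of Reg3g. At 1.5-fold it was 4, and the share of all genes past 1.5-fold is not given here. At 4-fold it was 0, where 2.2% of 14217 measured genes were higher and 0.295% lower. The count for male Tg E2 over male Tg went from 4 to 1 at 4-fold, where 1.74% of 14618 measured genes were lower and 0.267% higher. Beyond the tighter threshold, the cause of these shifts was not tested. Of 336 values of single Reg genes under the alternatives, 255 stayed within 1 standard error of the main value. That count includes the values under the filters and the averaging of probes, which could not move. The lowest intensities of the family were those of Reg4 on male WT (83.6) and female Tg (88.3) and Reg3g on male WT (98.4).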

Other observations

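Genes of other cells that come with islets had their own patterns over the arrays. Of 12 beta cell markers, 8 were at least 2-fold lower in male Tg over male WT and none higher (median −1.56 log2), beside 8.68% of all measured genes lower. In male Tg E2 over male Tg 3 of the 12 were at least 2-fold higher and none lower (median 0.75), beside 2.54% of all measured genes higher. Alpha cell genes and those of delta and PP cells were on the higher side in male Tg over male WT, with medians of 1.34 and 1.45. The Reg median lay on the opposite side of 0 from the beta cell median in both comparisons, at 5.28 and −1.47. The hormone genes Ins1, Ins2 and Iapp differed from the beta cell median in sign, at 0.67, 0.73 and 0.29 in male Tg over male WT and at −0.52, −0.48 and −0.32 in male Tg E2 over male Tg. Their direction was not settled, since in male Tg over male WT they stood at −0.25, −0.29 and −0.63 after quantile normalization, and in male Tg E2 over male Tg Ins1 and Iapp stood at 0.25 and 0.10. Stellate cell and matrix genes were at least 2-fold higher in 11 of 12 measured cases on the male Tg array and in 8 of 12 on the female Tg array, with medians of 2.96 and 1.81 over male WT, while the Reg medians there were 5.28 and −0.13. The shares of all measured genes higher by that much were 15.6% and 7.65%. In male Tg E2 over male Tg the matrix median was −0.13 with 1 of 13 genes at least 2-fold lower, beside 8.01% of all measured genes. Endothelial genes were near 0 in that comparison (median 0.03).

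The member whose profile stood farthest from the rest, Reg4, was nearest to Neurl3 among genes measured on all 4 arrays, while Reg2 was nearest to Reg3b and Reg3d to the acinar gene Cuzd1.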
